A study of Homo sapiens with 4 samples.

Results

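The genes described here are 47 glycosyltransferase genes, many of which build the outer parts of cell surface glycans. They comprise N-glycan branching enzymes, fucosyltransferases, sialyltransferases, a pair of α1,4 transferases and enzymes that extend N-acetyllactosamine. A gene was followed through the array probes whose RefSeq accession belongs to it, which gave 45 of the 47 genes among 16422 named genes, with 57 probes. FUT8 and ST8SIA6 had no probe matched in this way and were not analysed here. The group was chosen because probes named MGAT3 and A4GALT were strongly higher in both resistant clones, so the differences between clones and parental cells below are given as a description, with no test.
Total RNA was profiled on 4 Agilent whole genome arrays, 1 each for parental SkBr3, SkBr3/Lap, parental BT474 and BT474/Lap. Both cell lines come from HER2-positive breast cancers, and the parental cells are labelled as given vehicle. SkBr3/Lap and BT474/Lap are each a single clone, selected under lapatinib (a kinase inhibitor of HER2 and EGFR) raised stepwise to 1 μM, and are labelled as given lapatinib. Exposure to the drug, selection of a clone and resistance therefore cannot be told apart in either pair. Where resistance is named as a contrast below, it means clone against parental cells. The clone numbers are left out, since the sample labels and the methods of the study number them differently.
Glycosyltransferases of the Golgi add 1 sugar at a time to N-glycans and O-glycans on proteins and to glycolipids. MGAT enzymes set the number of antennae of an N-glycan, and MGAT3 adds the bisecting GlcNAc. Extension enzymes lengthen the antennae, and many sialyltransferases and fucosyltransferases cap them, which yields the Lewis and sialyl antigens known from epithelial tumors. A4GALT, B3GNT5 and ST3GAL5 act on the same glycolipid, lactosylceramide, and start the globo, lacto and ganglio series respectively.
Levels are given as scaled signals, which are the processed signals of a probe in percent of the 75th percentile of all probes on its array. That percentile was a signal of 1115 in SkBr3 against 2074 in its clone and 1158 in BT474 against 1681 in its clone, and 66.6% to 74.0% of the probes were well above background by the flags of the scanner software. A fold change is given as a limit ("at least") where only 1 side of a pair was well above background, and is left out where neither side was or where the limit was under 1. Every such limit is nominal, since some probes with signals above the value used for the dim side were not well above background. The true fold change can therefore be smaller than the limit. There were no replicates. The median SD among repeated spots of a probe on 1 array was 0.07 to 0.08 on the log2 scale, and different probes of a gene differed by a median of 0.30 in their log2 fold change. The arrays of SkBr3, BT474 and BT474/Lap were on 1 slide and that of SkBr3/Lap was on another, so that slide and resistance cannot be told apart in the SkBr3 pair. Luminal epithelial markers were well above background in 8 of 9 cases on both SkBr3 arrays, where CDH1 was not, and in 9 of 9 on both BT474 arrays. Their summed signals lay between 903852 and 1019690. The sums given for markers are of unscaled processed signals, so they do not compare levels between arrays. By scaled signal, each luminal marker was lower in the clone than in its parent wherever both sides were measured. Several of these log2 fold changes were small, such as KRT18 (-0.12) and EPCAM (-0.14) in SkBr3/Lap and CDH1 (-0.19) in BT474/Lap. The median over all named genes measured in a pair was -0.10 in both pairs. Of the 9 luminal markers, SPDEF (log2 fold change -6.23), FOXA1 (-2.43), ERBB2 (-1.90) and GRB7 (-1.19) were at least 2-fold lower in SkBr3/Lap, and SPDEF (-1.19) was so in BT474/Lap. Of 6 fibroblast markers with a probe, 3 were well above background in SkBr3/Lap (FBLN1, COL3A1 and PDGFRB) and 1 (FBLN1) on each other array. By scaled signal FBLN1 was 3.84-fold higher in SkBr3/Lap than in SkBr3. The summed signals of the 6 were 25225, 180366, 2646 and 3204 in SkBr3, SkBr3/Lap, BT474 and BT474/Lap. Of 5 endothelial markers, 2, 4, 1 and 2 were well above background in the same order (summed signals 196, 1424, 914 and 669). Of 6 leukocyte markers the numbers were 4, 5, 3 and 4 (summed signals 559, 530.0, 207 and 232), and PTPRC, which defines leukocytes, was well above background on no array. The part of these cells or genes in the results for SkBr3/Lap was not tested.
To see how far the group differed in the clones, each clone was set against its own parental cells. At least 2-fold above SkBr3 in SkBr3/Lap were 9 of the 45 genes (20%), beside 10.5% of all named genes, and at least 2-fold below it were 6 (13.3%), beside 11.2% of all named genes. In BT474/Lap, 4 genes (8.89%) were at least 2-fold higher and 4 were at least 2-fold lower, against 7.03% and 4.83% of all named genes. In all, 18 of the 45 genes (40%) passed 2-fold in at least 1 clone, beside 28.7% of all named genes. As the group was chosen on these contrasts, nothing is read from these shares. For bulk RNA, fewer cells that express a gene and less RNA per cell cannot be told apart. Along the change in SkBr3/Lap, ST6GALNAC3 lay just inside the 2-fold line (log2 fold change -1.10) and B4GALT5 just outside it (0.99), and for BT474/Lap FUT4 lay just inside (a limit of -1.04) and ST3GAL4 just outside (-0.93).

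**Figure D1:**
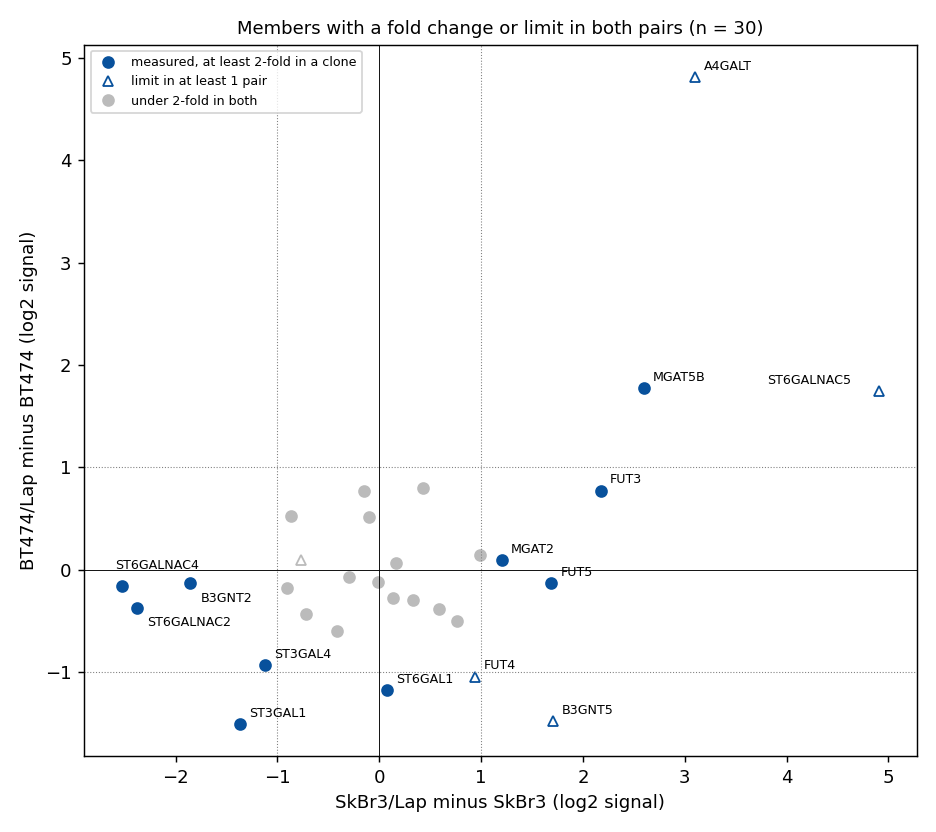
Log2 difference of scaled signal between clone and parental cells for the 30 genes with a fold change or a limit in both pairs, with SkBr3/Lap against SkBr3 on the horizontal axis and BT474/Lap against BT474 on the vertical axis (both log2). Each point is 1 gene, triangles hold a limit in at least 1 pair, and dotted lines mark 2-fold. A4GALT, MGAT5B and ST6GALNAC5 lie at the upper right, ST3GAL1 at the lower left, and B3GNT5 at the lower right.

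The plot of clone against clone shows that few of the genes passed 2-fold in both pairs. A4GALT, MGAT5B and ST6GALNAC5 passed 2-fold upwards in both clones, as did 1.86% of all named genes. ST3GAL1 passed it downwards in both, as did 1.00% of all named genes. B3GNT5 passed 2-fold in opposite directions, as did 1.99% of all named genes.
A4GALT makes the globo series glycolipid Gb3 from lactosylceramide. Its scaled signal was 0.363% in SkBr3 and 12.3% in SkBr3/Lap, and 0.595% in BT474 and 38.7% in BT474/Lap. Neither parental array was well above background and both clones were. The fold changes are thus nominal limits, at least 8.59-fold higher in the clone of SkBr3 and at least 28.1-fold higher in the clone of BT474. On the log2 scale these limits were 3.10 and 4.81, and they were 2.20 and 3.85 with 16 added to the signals and 1.96 and 3.10 with normexp background correction and quantile normalization. ST6GALNAC5, a sialyltransferase known for the ganglioside GD1α, was likewise not well above background in either parental line. Its scaled signal was 0.303% in SkBr3 against 43.0% in its clone and 0.650% in BT474 against 4.61% in its clone, which is at least 29.9-fold higher in the SkBr3 pair and at least 3.35-fold higher in the BT474 pair. Its log2 limits of 4.90 and 1.74 were 3.94 and 1.02 with 16 added, and 3.43 and 0.69 with normexp, the last under 2-fold.
MGAT5B, a GlcNAc-transferase that branches O-mannosyl glycans and is known mainly from brain, was measured on all 4 arrays. Its scaled signal was 20.2% in SkBr3 against 122% in its clone and 34.0% in BT474 against 116% in its clone. Both clones lay above both parental arrays, by 6.05-fold and 3.42-fold over their own parents. The other MGAT5B probe was well above background in SkBr3/Lap only, at 1.22%, and gave no fold change. The mean over both probes left log2 differences of 1.76 in the SkBr3 pair, where the brighter probe gave 2.60, and of 0.56 in the BT474 pair, under 2-fold.
ST3GAL1 adds sialic acid to the core 1 structure of O-glycans. Its scaled signal was 513% in SkBr3 against 199% in its clone and 555% in BT474 against 195% in its clone. Both clones lay under both parental arrays, by 2.57-fold and 2.84-fold below their own parents, and a further probe of the gene gave log2 fold changes of -1.38 and -1.53, close to the -1.36 and -1.50 of the first.
B3GNT5 starts the lacto series from lactosylceramide. Its scaled signal was 0.337% in SkBr3, not well above background, and 4.68% in SkBr3/Lap, at least 3.26-fold higher. In the BT474 pair the gene was far brighter and was 2.78-fold lower in the clone, with 157% in BT474 and 56.4% in BT474/Lap. The limit in SkBr3/Lap fell under 2-fold (0.93 on the log2 scale) with 16 added to the signals and was 1.02 with normexp.

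**Figure D2:**
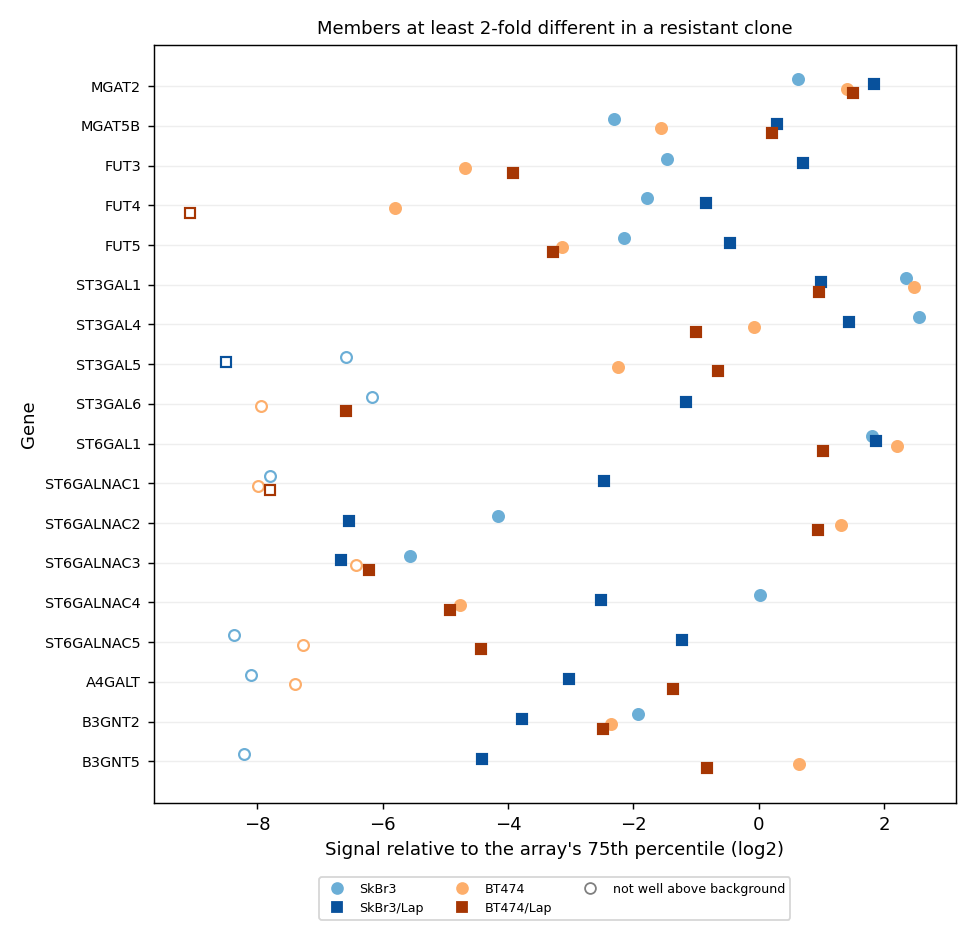
Scaled signal on a log2 axis (0 is the 75th percentile of the array) for the 18 genes that were at least 2-fold higher or lower in a clone, with 1 symbol per array and open symbols for signals not well above background. Circles are parental cells and squares are clones. The clone squares of A4GALT, MGAT5B and ST6GALNAC5 lie to the right of both parental circles, and those of ST3GAL1 lie to the left.

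The plot of signals by gene shows that the 4 largest differences in the SkBr3 pair (ST3GAL6, ST6GALNAC5, ST6GALNAC1 and A4GALT) were limits, in genes not well above background in parental cells. All 5 limits in the SkBr3 pair (ST3GAL6, ST6GALNAC1, ST6GALNAC5, A4GALT and B3GNT5) ran towards the clone. More probes of any kind were well above background in SkBr3/Lap (73.7%) than in SkBr3 (66.6%). The direction of limits over all named genes was not counted, so nothing is read from this.
MGAT3, the bisecting enzyme, gave different answers by probe. The only probe with a RefSeq accession of MGAT3 had scaled signals of 0.399% in SkBr3 against 0.856% in its clone and 1.24% in BT474 against 1.37% in its clone. It was well above background in the clones only, and the limit of its fold change was under 1 in both pairs, so no difference is given for MGAT3 from this probe. A further probe is named MGAT3 in the probe list of the study and by no RefSeq accession, and that list holds only probes at least 2-fold higher in both clones, so a name from it can add only probes of that kind. This probe was well above background on all 4 arrays, with scaled signals of 1.90% in SkBr3 against 169% in its clone and 5.43% in BT474 against 383% in its clone. Its log2 fold changes of 6.48 (89.2-fold) and 6.14 (70.6-fold) were larger than any measured for the 45 genes. It was kept out of the counts, and which transcript it reads was not tested.

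**Figure D3:**
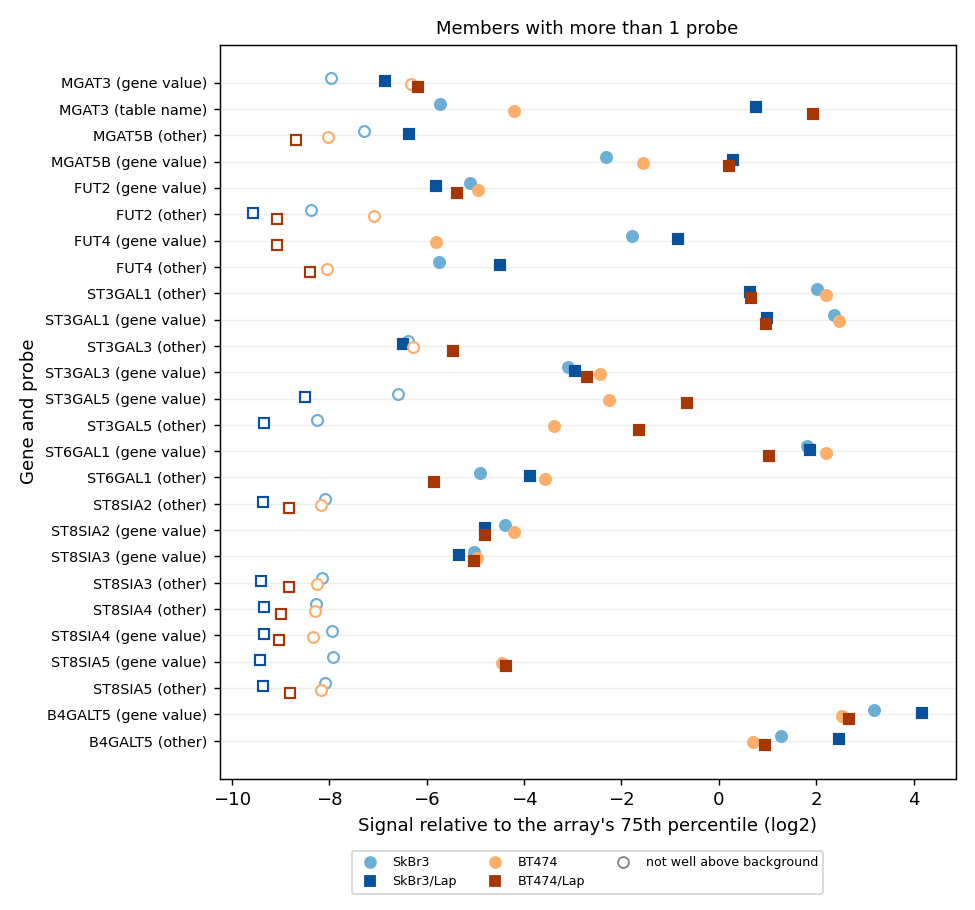
Scaled signal on a log2 axis (0 is the 75th percentile of the array) for every probe of the genes with more than 1 probe, with 1 symbol per array and open symbols for signals not well above background. The probe marked as gene value stands for its gene in the counts. Both probes of ST3GAL1 and of ST3GAL5 shift the same way, while the MGAT3 probe named in the probe list of the study is far to the right of the RefSeq-named probe in both clones.

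The plot of genes with several probes also shows probes without a usable signal. For FUT2, ST8SIA2, ST8SIA3 and ST8SIA5, the dimmer probe was not well above background on any array. For ST6GAL1 the dimmer probe differed more than the brighter one in both pairs.
The promoters of the genes at least 2-fold higher in both clones are shown to let a reader compare sequences of genes that moved together, with that of UGCG, which supplies the precursor of lactosylceramide. Each is the 250 bases before an annotated start in RefSeq (GRCh38.p14), written 5′ to 3′ on the strand of the gene, and capitals mark the GC box GGGCGG, which reads CCGCCC where it lies on the opposite strand, with overlapping matches joined. A4GALT has 2 annotated starts with different promoters, and MGAT3 is named only.
A4GALT start 1, chr22:42720871-42721120, minus strand: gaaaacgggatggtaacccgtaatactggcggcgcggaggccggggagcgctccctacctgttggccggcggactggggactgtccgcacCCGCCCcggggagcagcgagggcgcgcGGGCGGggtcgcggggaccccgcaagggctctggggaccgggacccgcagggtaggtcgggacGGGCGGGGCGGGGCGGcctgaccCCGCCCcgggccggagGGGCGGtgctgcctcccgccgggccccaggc
A4GALT start 2, chr22:42721302-42721551, minus strand: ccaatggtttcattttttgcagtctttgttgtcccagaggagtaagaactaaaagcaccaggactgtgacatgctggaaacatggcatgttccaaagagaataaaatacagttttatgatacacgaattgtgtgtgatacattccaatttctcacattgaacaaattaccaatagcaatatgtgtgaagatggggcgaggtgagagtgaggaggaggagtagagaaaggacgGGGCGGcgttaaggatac
ST6GALNAC5, chr1:76867230-76867479, plus strand: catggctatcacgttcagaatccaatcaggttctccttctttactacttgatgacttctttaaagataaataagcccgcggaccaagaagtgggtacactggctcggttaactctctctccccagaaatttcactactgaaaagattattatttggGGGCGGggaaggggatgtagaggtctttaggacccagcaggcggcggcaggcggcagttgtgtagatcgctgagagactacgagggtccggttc
MGAT5B, chr17:76872397-76872646, plus strand: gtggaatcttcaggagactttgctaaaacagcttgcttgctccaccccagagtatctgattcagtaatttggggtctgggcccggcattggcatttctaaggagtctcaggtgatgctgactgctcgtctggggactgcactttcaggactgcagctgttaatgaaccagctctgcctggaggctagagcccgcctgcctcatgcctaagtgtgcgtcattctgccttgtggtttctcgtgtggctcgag
UGCG, chr9:111896564-111896813, plus strand: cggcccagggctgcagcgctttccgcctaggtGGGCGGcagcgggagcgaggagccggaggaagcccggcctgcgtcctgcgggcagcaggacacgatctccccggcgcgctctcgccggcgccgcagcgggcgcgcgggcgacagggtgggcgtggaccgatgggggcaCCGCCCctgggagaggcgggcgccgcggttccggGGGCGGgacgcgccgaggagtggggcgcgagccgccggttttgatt
The promoter of the first A4GALT start held 7 GC boxes at a GC content of 79.2%, and that of the other start held 1 at 42%. UGCG held 3 at 78.4%, ST6GALNAC5 held 1 at 49.6%, and MGAT5B held none at 53.6%. Of 35116 RefSeq promoters of the same length, 42.6% held a GC box, and the median GC content was 58%. Neither the NF-κB consensus (found in 9.96% of promoters on either strand) nor TATAAA (10.7%) occurred in these 5 windows, which says only that the letters are not there.
Among the other N-glycan branching enzymes, MGAT2, which starts the antenna that makes a glycan complex, had scaled signals of 155% in SkBr3 against 357% in its clone and 266% in BT474 against 284% in its clone. It was 2.30-fold higher in SkBr3/Lap, while the BT474 pair differed by 1.07-fold. MGAT1, MGAT4A and MGAT4B, which start the first antenna and add a further one, were measured in both pairs with log2 fold changes from -0.15 to 0.59 for the SkBr3 clone and from -0.38 to 0.77 for the BT474 clone. MGAT4C and MGAT5 were not well above background on any array, so nothing can be said of the branch that MGAT5 makes.
Of the 10 fucosyltransferases, FUT3 and FUT5 passed 2-fold upwards in SkBr3/Lap, none did in BT474/Lap, and FUT4 passed it downwards in BT474/Lap. FUT3, which builds Lewis a and Lewis b type structures, had scaled signals of 36.2% in SkBr3 against 163% in its clone and 3.88% in BT474 against 6.63% in its clone. SkBr3/Lap was 4.51-fold above its parent, and BT474/Lap, at 1.71-fold, stayed short of 2-fold. FUT5, a close paralog of FUT3, had scaled signals of 22.7%, 73.1%, 11.3% and 10.3% in the same order, which is 3.23-fold higher in SkBr3/Lap and a log2 difference of -0.13 in the BT474 pair. FUT6, the third of these paralogs, differed by 1.12-fold and 1.05-fold. Cross-hybridization among these paralogs was not tested.
FUT4, which makes Lewis x, had scaled signals of 29.2% in SkBr3 against 56.1% in its clone and 1.79% in BT474 against 0.186% in its clone, the last not well above background. The gene was 1.92-fold higher in SkBr3/Lap. For BT474/Lap it was lower by 2.06-fold or more, a limit that fell under 2-fold with the percentile taken over probes above background (-0.93 on the log2 scale), with normexp (-0.42) and with 16 added to the signals (-0.79). The other FUT4 probe was 2.39-fold higher in SkBr3/Lap and had no fold change in BT474/Lap. With the mean over both probes FUT4 had no fold change in BT474/Lap either. FUT1, FUT2, FUT6, FUT10 and FUT11 were measured in both pairs with none past 2-fold. FUT7 was measured in the BT474 pair only (log2 fold change 0.18), and FUT9 was not well above background on any array.
Of the 6 sialyltransferases of the ST3GAL type, 1 passed 2-fold upwards and 2 downwards in SkBr3/Lap, and 1 each way in BT474/Lap. ST3GAL4, which caps N-acetyllactosamine, had scaled signals of 589.7% in SkBr3 against 271% in its clone and 95.3% in BT474 against 49.9% in its clone. Both clones were lower, SkBr3/Lap by 2.18-fold and BT474/Lap by 1.91-fold, and with the arrays scaled to their medians the former was under 2-fold (-0.96 on the log2 scale). ST3GAL6, which acts on similar chains, had scaled signals of 1.39%, 44.9%, 0.405% and 1.04% in the same order, with only the clones well above background, which gave at least 31.3-fold higher in SkBr3/Lap (4.97 on the log2 scale) and no fold change in BT474/Lap. With only the spots above background, both sides of the SkBr3 pair counted as measured, and the log2 fold change was 4.35, less than that limit. The limit was 4.001 with 16 added to the signals and 3.17 with normexp.
The ST3GAL6 probe was spotted 10 times on each array. All 10 spots were well above background in SkBr3/Lap, with processed signals between 890.3 and 958 (SD 0.03 on the log2 scale), against 3 of 10 in SkBr3 (signals of 9.97 to 36.2, SD 0.56), 0 of 10 in BT474 and 5 of 10 in BT474/Lap.
ST3GAL5, which makes the ganglioside GM3 from lactosylceramide, was near background in SkBr3 (1.04%) and in its clone (0.277%). Its scaled signal was 21.0% in BT474 and 63.7% in BT474/Lap, 3.03-fold higher in the clone, and the other probe gave a log2 fold change of 1.74 beside the 1.60 of the first. ST3GAL2 and ST3GAL3 did not reach 2-fold in either pair.
ST6GAL1, the main enzyme of terminal sialylation on N-glycan antennae, had scaled signals of 348% in SkBr3 against 368% in its clone and 461% in BT474 against 204% in its clone. The SkBr3 pair was level within 1.06-fold, and BT474/Lap was 2.25-fold lower than BT474. The dimmer ST6GAL1 probe differed by 1.03 in the SkBr3 pair and by -2.26 in the BT474 pair on the log2 scale. ST6GAL2 was not well above background on any array.
The ST6GALNAC enzymes, which act on O-glycans and gangliosides, split in SkBr3/Lap, with ST6GALNAC1 and ST6GALNAC5 higher and ST6GALNAC2, ST6GALNAC3 and ST6GALNAC4 lower. ST6GALNAC1, which makes the sialyl-Tn antigen, had scaled signals of 0.450% in SkBr3 against 18.1% in its clone and 0.394% in BT474 against 0.451% in its clone. It was well above background in SkBr3/Lap only, at least 12.6-fold higher than in SkBr3 (3.66 on the log2 scale, 2.73 with 16 added to the signals and 2.25 with normexp).
ST6GALNAC2 was abundant in the BT474 pair and dim in the SkBr3 pair, with scaled signals of 5.62% in SkBr3 against 1.08% in its clone and 249% in BT474 against 192% in its clone. SkBr3/Lap was 5.22-fold lower than its parent (-0.70 on the log2 scale with normexp), and BT474/Lap was 1.30-fold lower. ST6GALNAC4, which makes the disialyl form of core 1, showed the reverse order of cell lines, with 101% in SkBr3 against 17.6% in its clone and 3.66% in BT474 against 3.29% in its clone. SkBr3/Lap was 5.76-fold lower than its parent, and the BT474 pair differed by 1.11-fold.
ST6GALNAC3 was dim on every array, with 2.11% in SkBr3 against 0.986% in its clone and 1.16% in BT474 against 1.34% in its clone. It was 2.14-fold lower in SkBr3/Lap, which fell under 2-fold with the arrays scaled to their medians (-0.94 on the log2 scale) and with normexp (-0.42), and it had no fold change in BT474/Lap. ST6GALNAC6 was measured on all arrays and stayed under 2-fold, with log2 fold changes of -0.91 and -0.18. None of the 5 ST8SIA enzymes, which build chains of sialic acid, passed 2-fold or reached a processed signal of 100 on any array. On no array was ST8SIA4 well above background.
Among the enzymes that extend N-acetyllactosamine, B3GNT2, the main enzyme of polylactosamine, had scaled signals of 26.4% in SkBr3 against 7.29% in its clone and 19.6% in BT474 against 17.9% in its clone. Only SkBr3/Lap stood apart, 3.63-fold lower than SkBr3. B4GALT1 and B4GALT5, galactosyltransferases of glycoproteins and glycolipids, were well above background on every array and under 2-fold in both clones. B4GALT1 lay between 1652% in BT474 and 2497% in SkBr3. B4GALT5 had scaled signals of 907% in SkBr3 against 1805% in its clone and 578% in BT474 against 640% in its clone, 1.99-fold higher in SkBr3/Lap by this probe and 2.30-fold by the other. B3GNT3, which extends core 1, was bright in the SkBr3 pair only, at 755% and 619%, and B3GNT7 stayed under 2-fold in BT474/Lap and had no fold change in SkBr3/Lap.
Detection split the 45 genes into 25 above background on every array, 14 on some, and 6 on none (MGAT4C, MGAT5, FUT9, ST6GAL2, ST8SIA4 and A4GNT). The 27 genes that passed 2-fold in neither clone include these 6 and MGAT3, which had no fold change in either pair. Over the 29 genes measured on both arrays of the SkBr3 pair the median log2 fold change was -0.10, as over all 12022 named genes measured there, and over the 30 measured in the BT474 pair it was -0.13 against -0.10 over 12424.
Since A4GALT, ST3GAL5 and B3GNT5 share a substrate, the enzymes around lactosylceramide were set side by side. UGCG, which makes glucosylceramide, was higher in both clones, by 2.55-fold in the SkBr3 pair and by 3.98-fold in the BT474 pair, with scaled signals of 49.7% in SkBr3 against 127% in its clone and 49.2% in BT474 against 196% in its clone. In limma's test of resistance across both cell lines its adjusted p was 0.694. B3GALNT1, which turns Gb3 into Gb4, had scaled signals of 51.5%, 15.0%, 399% and 299% in the same order, lower by 3.43-fold in the SkBr3 clone and by 1.34-fold in the BT474 clone. GLA, the lysosomal enzyme that removes the last sugar of Gb3, differed by 1.45-fold and 1.04-fold. Of the 3 enzymes that compete for lactosylceramide, A4GALT was higher in both clones, ST3GAL5 was higher in BT474/Lap and not well above background in the SkBr3 pair, and B3GNT5 was higher in SkBr3/Lap and lower in BT474/Lap. ST8SIA1 and B4GALNT1, the next steps of the ganglio series, stayed under 2-fold in both clones.

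**Figure D4:**
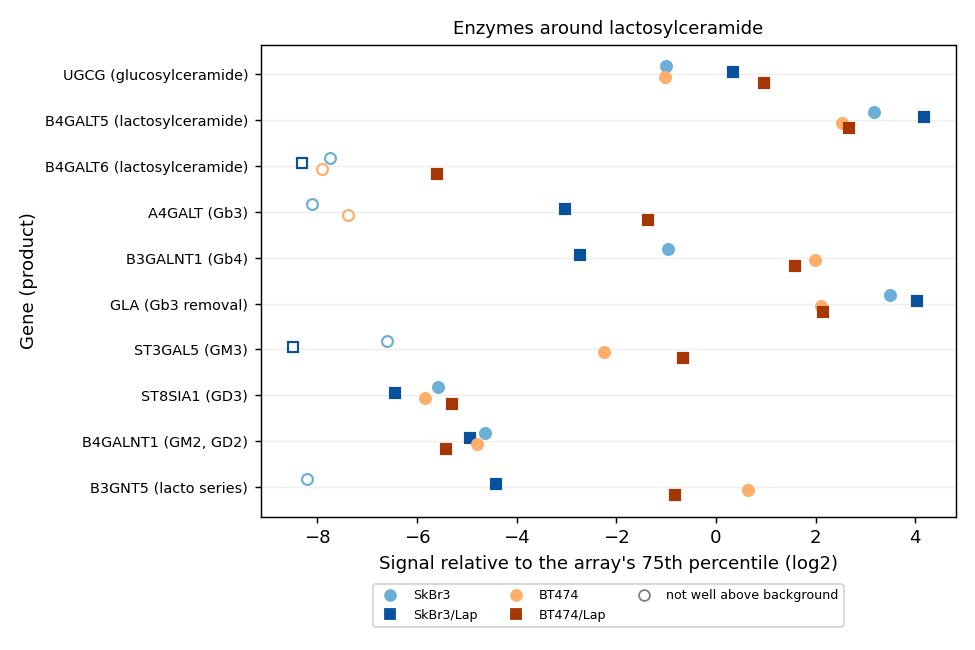
Scaled signal on a log2 axis (0 is the 75th percentile of the array) for 10 enzymes that make, use or degrade glycolipids around lactosylceramide, with the product in brackets, 1 symbol per array and open symbols for signals not well above background. The clone squares of UGCG and A4GALT lie to the right of both parental circles, and ST3GAL5 is above background in the BT474 pair only.

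The parental lines, a contrast that did not choose the genes, were also compared, with 1 array each and no test. SkBr3 was at least 2-fold above BT474 in 9 of the 45 genes, where it was in 14.8% of all named genes, and BT474 was above SkBr3 in 5, where it was in 15.2%. The widest gaps were in B3GNT3, at least 548-fold higher in SkBr3, and B3GNT5, at least 109-fold higher in BT474. ST6GALNAC2 was 44.3-fold higher in BT474, and ST6GALNAC4 was 27.6-fold higher in SkBr3. FUT4 was 16.3-fold, FUT3 9.34-fold, ST3GAL4 6.19-fold and MGAT4A 4.15-fold higher in SkBr3, and ST3GAL5 was at least 14.6-fold higher in BT474. A4GALT, ST6GALNAC1, ST6GALNAC5 and ST3GAL6 were not well above background in either parental line and had no fold change between them.
Other genes of glycan synthesis, breakdown and binding were then counted from a list of 103 genes with a probe. In SkBr3/Lap 14 were at least 2-fold higher (13.6%) and 15 lower (14.6%), and in BT474/Lap 8 were higher (7.77%) and 5 lower (4.85%), beside the shares of all named genes above. Medians over the measured genes were -0.27 and -0.15, beside -0.10 and -0.10 over all named genes measured in the same pairs. In limma's test across both cell lines, which has 1 residual degree of freedom, none of the 103 had an adjusted p under 0.05, and 11 had an unadjusted p under it. Over all 41000 probes the share with an adjusted p under 0.05 was 0% and the share with an unadjusted p under it was 4.98%.
Of the 103 genes 4 passed 2-fold upwards in both clones, beside the 1.86% of all named genes, and 3 of these were among the 19 glycan-binding genes. SIGLEC5, a sialic acid receptor of leukocytes, was not well above background in parental cells and reached 195% in the SkBr3 clone and 7.30% in the BT474 clone, at least 136-fold and at least 5.30-fold higher. CD22, a sialic acid receptor of B cells, was at least 2.33-fold and at least 4.02-fold higher, and MAG, the siglec of myelin, was 3.39-fold and 5.05-fold higher. UGCG was the other. GCNT1, which makes the core 2 branch on the same O-glycan core that ST3GAL1 caps, was lower in both clones, with scaled signals of 19.6% in SkBr3 against 4.95% in its clone and 59.3% in BT474 against 18.5% in its clone. In limma's test the adjusted p was 0.584 for CD22 and 0.694 for SIGLEC5, MAG and GCNT1.
Among the measured genes of that list the genes highest in SkBr3/Lap over SkBr3 by log2 difference were UGT8 (galactosylceramide synthase, 5.75), MAN1A1 (a Golgi mannosidase, 3.74) and GFPT2 (hexosamine synthesis, 3.69). The lowest were LGALS8 (galectin-8, -7.40), B4GALNT4 (-3.24) and LGALS1 (galectin-1, -2.70). Against BT474, the highest in BT474/Lap were MAG (2.34), UGCG (1.99) and GAL3ST1 (sulfatide synthesis, 1.97), and the lowest were GCNT1 (-1.68), GALNT7 (O-glycan initiation, -1.58) and GMDS (GDP-fucose synthesis, -1.22). These are descriptions of single arrays.
MGAT3 and A4GALT both lie on chromosome 22, so the 5 nearest named genes on each side in the RefSeq gene order were examined. Of the 10 neighbors of MGAT3 none was at least 2-fold higher or lower in SkBr3/Lap, and 1 (CBX7, log2 fold change 1.21) was higher in BT474/Lap. ENTHD1, also a neighbor of MGAT3, was not well above background on any array and had no fold change. Of the 10 neighbors of A4GALT, POLDIP3 (1.17) and PACSIN2 (1.56) were higher and SERHL2 (-7.87) and TSPO (-1.13) were lower in SkBr3/Lap, and SERHL2 (-1.10) and MCAT (-1.56) were lower in BT474/Lap. Of all named genes, 10.5% were at least 2-fold higher and 11.2% lower in SkBr3/Lap, and 7.03% and 4.83% in BT474/Lap. Whether the neighbors differ from these shares was not tested.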

How the data were processed

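Total RNA of 4 samples was labeled with Cy3 and hybridized to Agilent whole genome arrays, 1 per sample. The authors deposited, per the file headers, for each spot a processed signal intensity from Feature Extraction 10.1.1.1 after background subtraction, with Cy3 as the only channel (the methods name Cy3 or Cy5, an earlier version and LOWESS). A log2 table was also deposited, and its column differences were within 0.62 of those from the signals, with a median deviation of 0.0007 or less. The scale and centering of that table are not stated, and it served as an alternative.
Spots of 1 probe were averaged as log2 signals, and the 75th percentile over 41000 non-control probes was subtracted from each array. A probe needed 50% of its spots flagged by the software to be well above background. In a limit, the dim side was replaced by the lowest signal well above background on that array (13.3 to 16.0) unless its own was higher. Some probes with higher signals than this were not well above background, such as that of B3GNT3 at 21.1 in BT474/Lap. A limit is therefore nominal, and the true fold change can be smaller. RefSeq accessions (GRCh38.p14, used for names, gene order and promoters) named 23680 probes, FUT10 and FUT11 through older symbols, and a gene was represented by its probe with the highest mean log2 signal. Genes were named in the text when at least 2-fold different in a clone, with ranges and counts for the rest. Of the pathway list, those 2-fold in the same direction in both clones and the 3 highest and 3 lowest measured per clone were named, and further genes of the lactosylceramide steps and SIAE were added after their values were seen. An item that these rules cover is not reported here. Limma 3.58.1 in R 4.3.3 fitted resistance with cell line as a term over all probes, with Benjamini-Hochberg adjustment, tested on simulated data. Python 3.11.15 did the rest. The genes and lists were chosen with earlier results of these data known. With 1 array per group, the number of arrays limits the precision.
Alternatives were the median or the percentile over probes above background as scaling, quantile normalization, normexp (offset 50) with quantile normalization, the deposited table, 16 added to the signal, signals of at least 100 or above background on all 4 arrays, outlier spots left out, only spots above background, the mean over probes, and 3-fold.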

Additional observations from a re-analysis of the deposited data

Results flagged for a closer look

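B3GNT5 and SIAE passed 2-fold in opposite directions in the clones, and the difference between the pairs was not tested, with 1 array per group. B3GNT5 had a limit of 1.70 on the log2 scale in SkBr3/Lap and a measured log2 fold change of -1.47 in BT474/Lap. SIAE, which removes acetyl groups from sialic acid, had log2 fold changes of -1.66 and 1.65 in the same clones.
A probe outside the RefSeq-named set, called MGAT3 in the probe list of the study only, stood above its parental level in both clones, by 6.48 on the log2 scale in SkBr3/Lap and 6.14 in BT474/Lap.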

How the results depend on the processing

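Each group has 1 sample, so no replicate number could serve as a block. The cell line term of limma paired each clone with its own parent, without replication within a pair. Of 338 values of named genes under the alternatives, 243 moved by less than a tolerance and 95 moved by more. The tolerance was the root of the summed squares of the SDs among repeated spots of both arrays compared. For the genes past 2-fold in the main setting, the alternatives gave 240 values. None of these changed sign and 10 fell under 2-fold, each given beside its gene in the report. A limit that reversed would give no value, so limits could not change sign. For a gene with a single probe and spot, several alternatives return nearly the main value by construction. These counts and the 243 are therefore no measure of robustness. Cases where an alternative gave no value are not among the 240, such as FUT4 in BT474/Lap with the mean over probes. Probes above background on all 4 arrays leave 25 of the 45 genes and none that is a limit. Under that filter 4 were higher in SkBr3/Lap, beside 10.2% of all named genes. In BT474/Lap 1 was higher and 2 were lower, beside 6.08% and 4.62% of all named genes. By the same filter 3 of 70 pathway genes were higher in BT474/Lap. At 3-fold, 3 of the 45 genes were lower in SkBr3/Lap, beside 5.65% of all named genes, and 0 were lower in BT474/Lap, beside 2.01%. Of the pathway genes, 8 were 3-fold higher in SkBr3/Lap, beside 6.07% of all named genes, and 9 were lower, beside 5.65%. In BT474/Lap 1 pathway gene was 3-fold lower, beside 2.01% of all named genes. Pathway genes higher in BT474/Lap numbered 3 with normexp, beside 4.54% of all named genes. With signals of at least 100 they numbered 5 of 75, beside 8.60% of all named genes under that filter. Naming probes also by the list of the study, chosen after the data were seen, gave 10 genes higher in SkBr3/Lap and 5 in BT474/Lap. The shares of all named genes were then 10.5% and 7.04%. As that list holds only probes at least 2-fold higher in both clones, these counts could only stay or rise. Over the named genes measured on both arrays of a pair the median log2 difference was -0.10 in both pairs. With scaling to the array medians it was 0.05 for SkBr3/Lap and -0.31 for BT474/Lap. Without the cell line term, limma gave 0 probes at an adjusted p under 0.05 and 584 at an unadjusted p under it, against 0 and 2043 with it. The slide as a block could not be fitted and was not run. Signals near background, as in ST6GALNAC3 and MGAT3, limit what can be said of these genes.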
